A study of Mus musculus with 6 samples.

Results

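The nuclear encoded subunits of respiratory complex I were examined in brown adipocytes with and without a stable knock-down of Aspa, the gene of aspartoacylase, which cleaves N-acetylaspartate into acetate and aspartate. Members were the genes whose symbol reads Nduf, followed by a, b, c, s or v and a number, and which had an array row of their own. For a gene with several rows, the brightest row over the 6 arrays was taken. This gave 32 genes of the 22180 genes with a row of a single symbol, namely 6 core and 26 accessory subunits. Ndufb1 was not analysed here. Ndufb2, Ndufb4 and Ndufs6 had only rows that also match other genes and are therefore not members. The name fits 31 of the 32 members, since Ndufa4, long counted as a complex I subunit, is now assigned to complex IV. Its own values are described apart, but summaries of the 26 accessory subunits include it.

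The cells were immortalized brown adipogenic cells (iBACs), an established mouse line that forms brown adipocytes in culture. The siAspa cells carried a lentiviral shRNA against Aspa, and the control cells (ntc) carried a lentiviral non-targeting construct. Both were selected with G418 as dividing cells. Both were then induced with IBMX, dexamethasone, insulin, triiodothyronine and indomethacin, and were kept in insulin and triiodothyronine until harvest on day 7. For each group 3 arrays were made, with 200 ng of total RNA per array, on the mouse gene-level expression platform of Affymetrix. The paper's methods describe triplicates as different passages of the cells, so that p-values measure the spread between passages of 1 line. A single clone number was given for the knock-down construct, and loss of Aspa cannot be told apart from other differences between the transduced cells. The promoter that drives the shRNA was not given in the sources used here.

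Complex I, NADH:ubiquinone oxidoreductase, is the entry point for electrons from NADH into the respiratory chain. Its matrix arm binds NADH and passes the electrons through flavin and iron-sulfur clusters to ubiquinone, and its membrane arm uses the released energy to pump protons out of the matrix. The core subunits, which have counterparts in the bacterial enzyme, carry out these steps. The core of the matrix arm is encoded in the nucleus and that of the membrane arm in mitochondrial DNA. The accessory subunits, all nuclear encoded, surround the core and serve in assembly and stability. Brown adipocytes are rich in mitochondria, and in these cells UCP1 lets the pumped protons flow back so that respiration yields heat.

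The targeted gene followed the labels. Aspa had log2 signals of 7.02, 6.97 and 7.44 on the siAspa arrays and 9.07, 8.81 and 8.59 on the ntc arrays, which left 31.2% of the ntc level (log2 fold change -1.68 ± 0.17, standard error, with an adjusted p = 0.034 from limma). Markers of brown adipocytes shared this direction, with 8 of 9 measured genes lower at an unadjusted p under 0.05, among them Ucp1 at 9.96, 9.87 and 10.41 in siAspa against 12.07, 11.62 and 11.71 in ntc. Cidea, another brown marker, had a log2 fold change of -1.87. Of 11 measured general adipocyte markers 6 were lower at that limit, among them Pnpla2 (log2 fold change -0.59) and Cd36 (-0.46). Fabp4 (-0.11) and Adipoq (-0.08) did not reach it. On average all 11 lay lower in siAspa than in ntc. The log2 fold change in the middle of these 11 was -0.30, against a median of -0.24 over the 32 complex I members. Of 11 measured preadipocyte and fibroblast markers, 1 was lower and 3 were higher, while 6.17% of all genes were lower and 6.87% were higher by this limit. Myeloid and endothelial markers had 1 higher gene each, of 5 and 3, and muscle markers had 0 of 5. Ucp1, Fabp4 and Adipoq lay far above the array median on all 6 arrays. The myeloid markers differed in level. The leukocyte marker Ptprc lay below the median throughout, between 3.81 and 4.34, as did Adgre1 and Itgam. Csf1r lay near it, between 5.80 and 6.20. Cd68, the myeloid marker that was higher in siAspa, lay above it on all 6 arrays, between 7.18 and 7.86. The median signal over all rows lay between 5.78 and 5.85 on every array.

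Most complex I subunits had a lower signal in Aspa knock-down cells, but no single subunit passed the test over all rows. The log2 fold change (siAspa minus ntc) was negative for 28 and positive for 4 of the 32 members. Its median was -0.24, that is 84.5% of the ntc level, and it ranged from -0.46 for Ndufs1 to 0.17 for Ndufa2, whereas the median over all 22180 genes was 0.02. At an adjusted p under 0.05 (limma, Benjamini-Hochberg over all rows) 0 of 32 members were called, against 0.289% of all genes. By the unadjusted p under 0.05, 15 members counted as lower and 0 as higher, while 6.17% of all genes counted as lower and 6.87% as higher. Among genes with a signal above the median, where 31 of the members lie, 8.57% were lower by the same limit. The 15 became 5 without siAspa 2, 7 without siAspa 1, 6 without ntc 1 and 8 without ntc 2. On 18 members every siAspa array lay below every ntc array, which held for 9.99% of all genes. The opposite order was found on 1 member, Ndufa2, and on 12.6% of all genes. The arrays were made from bulk RNA, in which fewer differentiated cells and less RNA of these genes per cell cannot be told apart. The part of the lower brown and general adipocyte markers in these values was not tested.

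**Figure D1:**
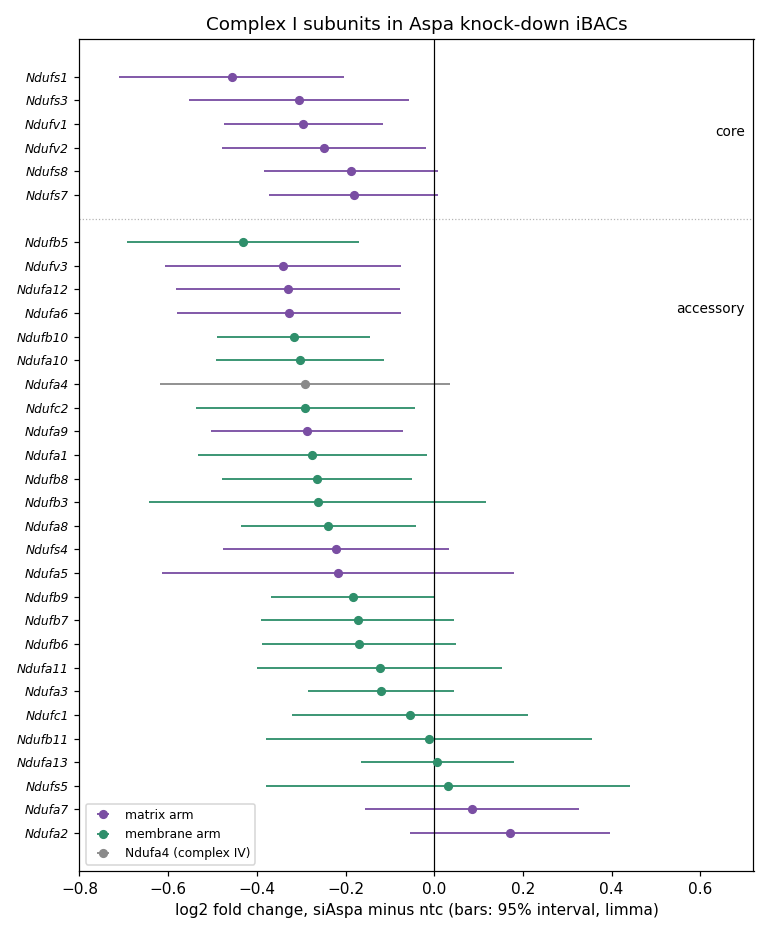
Log2 fold change (siAspa minus ntc, horizontal axis) of the 32 members, core subunits on top and accessory subunits below, each sorted by size, with bars for the 95% interval from limma. Points of 28 members lie left of 0, from -0.46 for Ndufs1, and the 4 to the right end at 0.17 for Ndufa2.

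All 6 measured core subunits had a lower mean in siAspa, and on each of them the arrays of the groups did not overlap, against 9.99% of all genes. Their median log2 fold change was -0.27, or 82.8% of the ntc level. By the unadjusted limit 4 of the 6 counted as lower, against 6.17% of all genes, and none passed after adjustment. The core subunits are described along the path of the electrons.

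Ndufv1 encodes the subunit that binds NADH and its first electron acceptor, flavin mononucleotide. Its log2 signals were 10.60, 10.57 and 10.63 in siAspa and 10.96, 10.82 and 10.90 in ntc. The gap between the groups exceeded the spread within either of them, with 81.5% of the ntc level left (log2 fold change -0.30, 95% interval -0.47 to -0.12, adjusted p = 0.203 from limma). Ndufv2, its partner in the NADH-binding module, holds an iron-sulfur cluster beside the flavin. It read 10.71, 10.59 and 10.83 in siAspa against 11.05, 10.98 and 10.85 in ntc, so that siAspa 3 came within a few hundredths of ntc 3. Its log2 fold change was -0.25 (interval -0.48 to -0.02, adjusted p = 0.392).

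Ndufs1, which encodes the largest subunit of the complex and carries several iron-sulfur clusters of the NADH-binding module, had the lowest log2 fold change of the members. Its log2 signals were 9.85, 9.76 and 10.04 on the siAspa arrays and 10.45, 10.37 and 10.21 on the ntc arrays. Every siAspa array was below every ntc array, the nearest being siAspa 3 and ntc 3. The mean in siAspa was 72.9% of the ntc level (log2 fold change -0.46, 95% interval -0.71 to -0.20, adjusted p = 0.170). A dimmer row shared by Ndufs1 and Ino80dos had a log2 fold change of -0.06 with overlapping groups.

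Ndufs8, Ndufs7 and Ndufs3 belong to the part of the matrix arm that hands electrons to ubiquinone. Ndufs8, which carries a pair of iron-sulfur clusters, read 11.07, 11.15 and 11.20 in siAspa against 11.41, 11.33 and 11.24 in ntc. Ndufs7, which holds the terminal cluster next to the ubiquinone site, read 10.98, 11.03 and 11.04 in siAspa against 11.31, 11.15 and 11.14 in ntc. Both had the highest log2 fold changes of the core subunits, -0.19 and -0.18, and on both the interval reached just past 0 (upper ends 0.01 and 0.01, adjusted p = 0.451 and 0.456). Ndufs3, a hydrophilic subunit needed early in assembly, read 7.47, 7.40 and 7.60 in siAspa and 7.95, 7.77 and 7.66 in ntc. Its groups were also apart, with a log2 fold change of -0.31 (interval -0.55 to -0.06, adjusted p = 0.325).

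**Figure D2:**
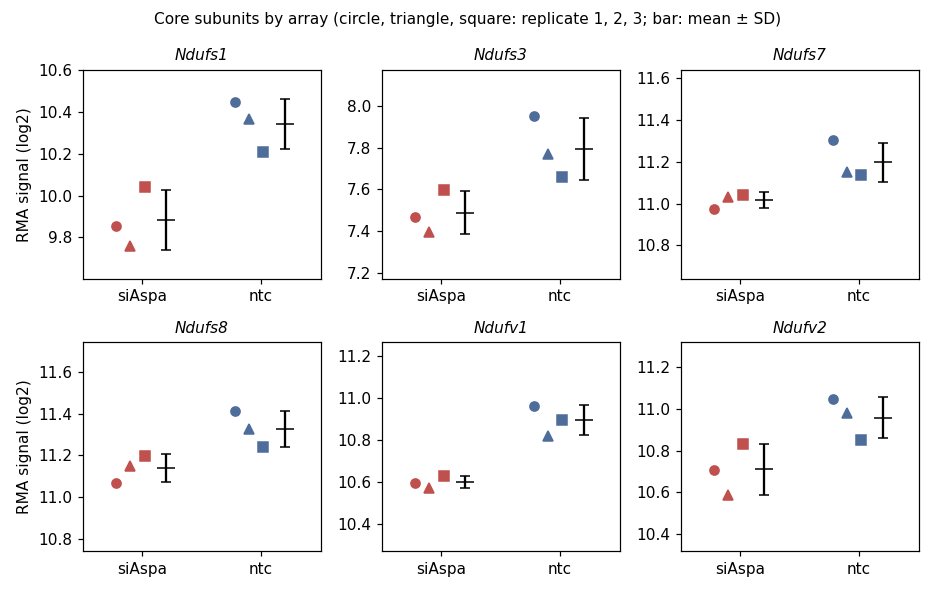
RMA signal (log2) of the 6 measured core subunits on each array, siAspa left and ntc right, with the mean and SD of 3 arrays beside the points. On every panel the 3 siAspa arrays lie below the 3 ntc arrays, and on all but Ndufv1 the nearest are siAspa 3 and ntc 3.

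Among the 8 accessory subunits of the matrix arm, 4 met the unadjusted limit as lower, and on these 4 the groups did not overlap. They were Ndufv3, Ndufa12, Ndufa6 and Ndufa9, with log2 fold changes between -0.34 and -0.29. Over all genes, 6.17% met that limit as lower and 9.99% were apart in this direction. Ndufv3, a small subunit bound to the NADH module, read 8.92, 8.76 and 9.05 in siAspa and 9.35, 9.09 and 9.32 in ntc (log2 fold change -0.34, adjusted p = 0.307). Its highest siAspa array and lowest ntc array, siAspa 3 and ntc 2, lay close together. All 3 Ndufv genes, core and accessory, were thus lower at the unadjusted limit.

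Ndufa12 takes the place of an assembly factor late in the building of the matrix arm. It read 9.85, 9.79 and 9.95 in siAspa against 10.27, 10.31 and 10.00 in ntc (log2 fold change -0.33, adjusted p = 0.299). Its second row gave the same direction, with a log2 fold change of -0.27. Ndufa6, a subunit of the LYR family that anchors the mitochondrial acyl carrier protein to the complex, read 10.49, 10.46 and 10.71 in siAspa against 10.97, 10.94 and 10.74 in ntc. There siAspa 3 and ntc 3 nearly met, and the log2 fold change was -0.33 (95% interval -0.58 to -0.07, adjusted p = 0.304). Ndufa9, which binds NADPH and lies at the junction of the arms, read 10.78, 10.75 and 10.94 in siAspa against 11.22, 11.04 and 11.07 in ntc. The ntc arrays were all higher, and siAspa stood at 81.9% of them on average (log2 fold change -0.29, adjusted p = 0.292).

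The other matrix accessory subunits did not reach that limit. Ndufs4, whose loss in mice gives a much used model of mitochondrial encephalopathy, and Ndufa5, a hydrophilic subunit, each had a log2 fold change of -0.22, and on both ntc 3 lay within the siAspa range or below it. The remaining pair, Ndufa2 and Ndufa7, had positive values and is described further on.

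The membrane arm contributed 17 accessory subunits, of which 7 met the unadjusted limit as lower and 8 had no overlap between the groups. Its median log2 fold change was -0.18, or 88.0% of the ntc level. The shares over all genes were 6.17% lower at that limit and 9.99% lower without overlap. Ndufb10, a subunit of the distal part of the arm with disulfide-bonded cysteines, had the lowest adjusted p of all members. Its log2 signals were 8.67, 8.74 and 8.78 in siAspa and 9.08, 9.03 and 9.03 in ntc. The arrays agreed closely within each group, and the means were 8.73 ± 0.06 in siAspa and 9.05 ± 0.03 in ntc (SD, n = 3 each). The level in siAspa was 80.3% of that in ntc (log2 fold change -0.32, 95% interval -0.49 to -0.15, adjusted p = 0.162 from limma).

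Ndufb5, another subunit of the distal membrane arm, had the lowest log2 fold change of the accessory subunits. It read 8.77, 8.86 and 9.09 in siAspa and 9.43, 9.36 and 9.22 in ntc, which put it at 74.2% of the ntc level (log2 fold change -0.43, interval -0.69 to -0.17, adjusted p = 0.203). Again siAspa 3 was the highest array of its group and ntc 3 the lowest of its own. Ndufb8, a subunit much used as an antibody marker of the assembled complex, read 8.25, 8.22 and 8.39 in siAspa against 8.51, 8.67 and 8.49 in ntc (log2 fold change -0.26, adjusted p = 0.324).

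Ndufa10 sits on the matrix face of the membrane arm and has the fold of a nucleoside kinase. It read 11.48, 11.44 and 11.57 in siAspa against 11.81, 11.73 and 11.87 in ntc, with a gap between the groups wider than the range of either (log2 fold change -0.30, adjusted p = 0.213). Here replicate 3 was the highest array in both groups. Ndufa8, a subunit on the intermembrane space side held by disulfides, read 10.80, 10.81 and 10.84 in siAspa against 11.14, 11.09 and 10.93 in ntc. The ntc arrays spread more than the siAspa arrays, which were nearly equal, and the log2 fold change was -0.24 (adjusted p = 0.333) and that of its second row -0.23. Ndufc2, a small membrane subunit, read 10.77, 10.65 and 10.91 in siAspa against 11.18, 11.09 and 10.93 in ntc (log2 fold change -0.29, adjusted p = 0.351). In this gene, too, the closest arrays of the groups were siAspa 3 and ntc 3.

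Among 10 further accessory subunits, Ndufs4 and Ndufa5 included, log2 fold changes lay between -0.28 and -0.05. Of these only Ndufa1, an X-linked subunit needed for assembly, met the unadjusted limit (log2 fold change -0.28, adjusted p = 0.398), although siAspa 3 and ntc 3 changed places there. Ndufb9, a second LYR subunit, and Ndufa3 had small differences of -0.18 and -0.12 with no overlap between the groups. In Ndufb3, Ndufs4, Ndufa5, Ndufb7, Ndufb6, Ndufa11 and Ndufc1 the groups overlapped. The second row of Ndufa11, which was dimmer, had a log2 fold change of 0.03, also with overlap.

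Ndufa2, a matrix-arm subunit with a thioredoxin-like fold, was the only member with every siAspa array above every ntc array. It read 10.41, 10.42 and 10.47 in siAspa and 10.38, 10.32 and 10.09 in ntc. The siAspa arrays were nearly equal and ntc 3 was the lowest of the ntc arrays (log2 fold change 0.17, 95% interval -0.05 to 0.40, adjusted p = 0.561). Without ntc 3 the log2 fold change was 0.09. Ndufa7, which lies near the ubiquinone site, read 9.35, 9.33 and 9.61 in siAspa and 9.28, 9.43 and 9.34 in ntc, with overlapping groups and a log2 fold change of 0.08 (interval -0.16 to 0.33) that rests on siAspa 3.

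Ndufa13, also known as GRIM-19 for its role in interferon and retinoid induced cell death, had the narrowest interval around 0 of the members that were not lower. It read 10.62, 10.69 and 10.69 in siAspa and 10.65, 10.72 and 10.62 in ntc, a log2 fold change of 0.01 (interval -0.17 to 0.18), so that its level in siAspa lay between 89.1% and 113% of that in ntc. Ndufs5 and Ndufb11 had the dimmest rows of the members. Ndufs5, a disulfide-bonded subunit of the intermembrane space, read 4.51, 4.48 and 5.06 in siAspa and 4.49, 4.69 and 4.78 in ntc, all below the median of all rows. Its log2 fold change was 0.03 (interval -0.38 to 0.44), and a row shared by Ndufs5 and its pseudogene Ndufs5-ps had a log2 fold change of -0.21 with overlapping groups. Ndufb11, an X-linked subunit, read 6.60, 6.22 and 6.67 in siAspa and 6.48, 6.32 and 6.73 in ntc, with a log2 fold change of -0.01 (interval -0.38 to 0.36).

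Ndufa4, the member now assigned to cytochrome c oxidase, read 11.17, 11.11 and 11.21 in siAspa and 11.67, 11.55 and 11.15 in ntc. Here ntc 1 and ntc 2 stood well above the siAspa arrays while ntc 3 lay among them. The log2 fold change was -0.29 (95% interval -0.62 to 0.04, adjusted p = 0.487). Leaving it out changed the median of the members by less than 0.01. Without Ndufa4 the accessory median was -0.22, and the core median minus the accessory median was -0.05.

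**Figure D3:**
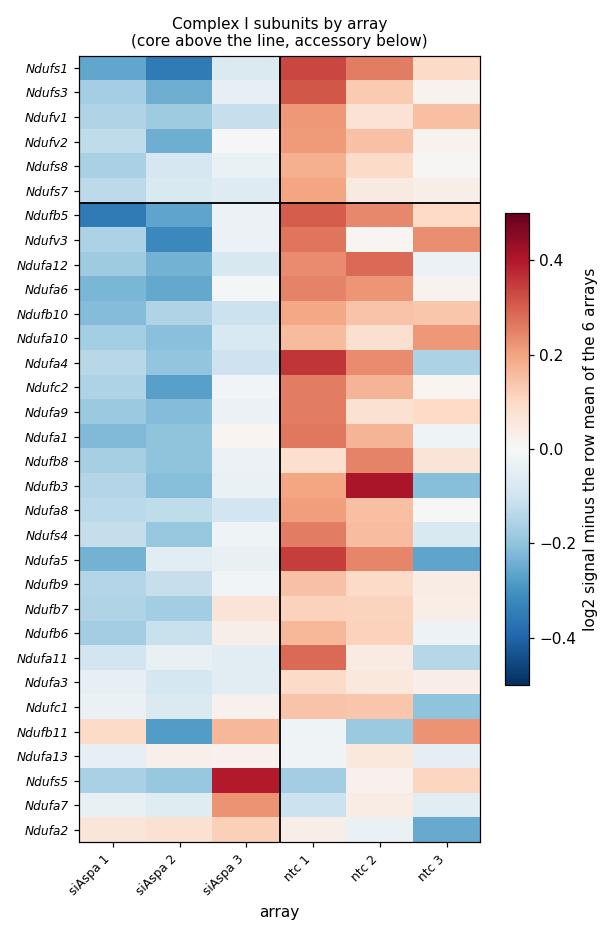
Log2 signal of each member (rows) on each array (columns, siAspa left and ntc right) minus the mean of that row over 6 arrays, with core subunits above the line and accessory subunits below it, and a colour scale in log2 units. Blue prevails on siAspa 1 and siAspa 2 and red on ntc 1 and ntc 2, while siAspa 3 and ntc 3 are paler.

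The subunits shared a pattern across the single arrays. Of the 32 members, 29 had their highest siAspa signal on siAspa 3, and 25 had their lowest ntc signal on ntc 3, whereas ntc 1 was the highest ntc array for 24. Averaged over the members after each row was centred on its mean, the arrays read -0.14, -0.17 and 0.00 in siAspa and 0.18, 0.13 and 0.00 in ntc on the log2 scale. Thus siAspa 3 and ntc 3 nearly coincided, whereas the other arrays of the groups lay on opposite sides of 0. Over all genes the same means stayed within 0.01 of 0 on every array. The pattern was not particular to complex I. In complexes II to V and the assembly factors, mean signals were also highest in siAspa on siAspa 3 and lowest in ntc on ntc 3. These 2 arrays read 10.04 and 10.12 in complex III, 10.11 and 10.18 in complex IV, and 9.86 and 9.88 in complex V. They read 8.23 and 8.19 in the assembly factors, but 10.66 and 10.91 in complex II. Aspa itself was highest in siAspa on siAspa 3 and lowest in ntc on ntc 3, and so the arrays that differed least in the subunits also differed least in the targeted gene. The mean of the 9 brown adipocyte markers was 7.90, 7.82 and 8.11 in siAspa and 9.08, 8.70 and 8.78 in ntc, where siAspa 3 was again the highest of its group but ntc 3 was not the lowest. The part of the depth of knock-down or of differentiation in the spread of the subunits was not tested.

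Nuclear core subunits had slightly lower fold changes than accessory subunits. The 7 core subunits encoded in mitochondrial DNA are not part of this comparison, and their median was -0.09. The median log2 fold change was -0.27 over the 6 core and -0.23 over the 26 accessory subunits, a difference of -0.04. The means of the core subunits on the centred scale were -0.17, -0.20 and -0.05 in siAspa and 0.24, 0.12 and 0.05 in ntc. Those of the accessory subunits were -0.14, -0.16 and 0.01 in siAspa and 0.17, 0.13 and -0.01 in ntc. The core means thus kept the groups apart, while the accessory means of siAspa 3 and ntc 3 crossed. Core minus accessory was -0.03, -0.04 and -0.06 in siAspa and 0.08, 0.00 and 0.06 in ntc, with no overlap between the groups and a mean difference of -0.09. This is a description of 6 arrays and was given no test. The difference of the medians was 0.00 when either siAspa 2 or ntc 3 was left out, and -0.09 without ntc 2. Without the dim accessory members Ndufs5 and Ndufb11 it was -0.02.

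The arms of the complex also lay close together. The median log2 fold change was -0.27 over 14 matrix-arm members and -0.18 over 17 membrane-arm members. The matrix arm holds all the core members, and its 8 accessory members alone had a median of -0.25. Matrix minus membrane arm on the centred scale was -0.01, -0.02 and -0.03 in siAspa and 0.07, 0.00 and -0.02 in ntc, and these values overlapped.

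**Figure D4:**
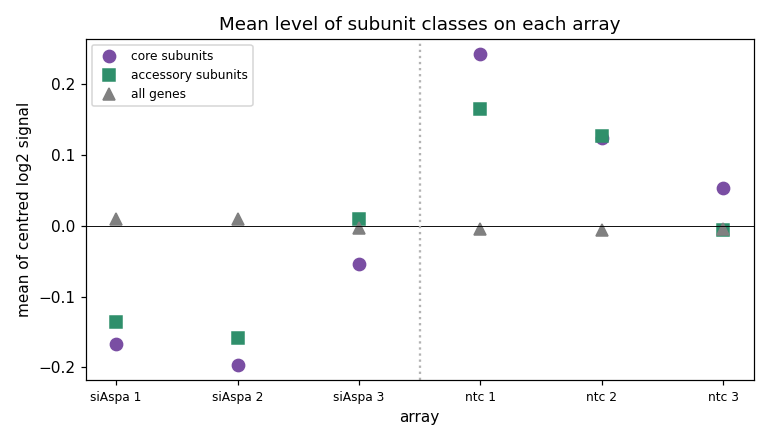
Mean of the centred log2 signal (vertical axis) over 6 core subunits, 26 accessory subunits and all genes on each array, siAspa left of the dotted line and ntc right of it. The core mean lies below 0 on every siAspa array and above 0 on every ntc array, the accessory means come within 0.01 of 0 on both replicates numbered 3, and the mean of all genes stays near 0.

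Nuclear respiratory genes are known to be served by a few transcription factors, among them NRF1, the ETS factor GABP, YY1 and the estrogen related receptors (ERR). RefSeq promoter windows of the build GRCm38.p6, from 250 bases before to 50 bases after the start of a transcript, were matched to 29 of the 32 members by symbol. On either strand they were searched for GCGCANGCG (NRF1), CCGGAAGT (ETS), AAGATGGCG (YY1) and TCAAGGTCA (ERR). A match describes the letters of a window and shows neither binding nor a cause. The NRF1 letters read nearly the same on both strands and can overlap their own reverse.

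The NRF1 letters were found for 6 of 29 members (20.7%), against 7.03% of all genes with a window and 13.98% of those above the median signal. The following windows are shown because they hold the motif as a pair or in the same form, with the matches in capitals and the strand of the gene given, read 5′ to 3′. Ndufa8 held a pair on the strand opposite to the gene, within 29 bases before the start, at chr2:36049339-36049387 on the minus strand. Ndufa11 held a palindromic pair, overlapping on both strands, 60 bases before the start, at chr17:56717682-56717731 on the plus strand. Ndufa5 and Ndufs5 shared the same form of the motif, at chr6:24527688-24527736 and chr4:123718256-123718304, both on the minus strand.
Ndufa8: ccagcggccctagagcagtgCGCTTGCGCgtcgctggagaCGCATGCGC
Ndufa11: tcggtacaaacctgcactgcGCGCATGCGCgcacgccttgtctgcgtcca
Ndufa5: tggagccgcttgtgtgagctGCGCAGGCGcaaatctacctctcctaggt
Ndufs5: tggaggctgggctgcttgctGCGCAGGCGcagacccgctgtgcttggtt

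The 6 members with this motif, Ndufa5, Ndufa6, Ndufa8, Ndufa11, Ndufb10 and Ndufs5, had a median log2 fold change of -0.23 and ranged from -0.33 to 0.03. The 18 members with none of the motifs had a median of -0.26 and ranged from -0.43 to 0.08. Members with this motif and members with none of the motifs thus covered much the same values. Ndufs1 and Ndufa2, the members with the lowest and the highest log2 fold change, had no matched window and are in neither group.

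The YY1 letters were found for 4 of 29 members (13.8%), against 1.64% of all genes and 3.19% of those above the median signal. In all 4 they lay on the strand of the gene, between 22 and 35 bases after the start, and are shown because their place is so alike. The capitals hold the letters ATG, which also form the start codon, and whether translation begins there was not examined. The stretches lie at chr6:126849097-126849125 (minus strand) for Ndufa9, chr10:80249463-80249491 (plus strand) for Ndufs7, chr3:51408915-51408943 (minus strand) for Ndufc1 and chr13:114388045-114388069 (minus strand) for Ndufs4, where the window ends.
Ndufa9: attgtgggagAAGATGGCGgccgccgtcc
Ndufs7: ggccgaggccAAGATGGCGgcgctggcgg
Ndufc1: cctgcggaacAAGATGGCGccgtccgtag
Ndufs4: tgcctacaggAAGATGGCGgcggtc

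These 4 members had log2 fold changes between -0.29 and -0.05 with a median of -0.20. The ETS letters were found for 1 member, Ndufs3 (3.45%, against 4.31% of all genes and 8.11% of those above the median signal). Those of ERR were found for 0 of 29 (against 0.466% of all genes and 0.30% of those above the median signal). Of the genes that encode these factors, Nrf1 and Yy1 had log2 fold changes of 0.06 and 0.02 and Gabpa, a subunit of GABP, of -0.20. Gabpa was lower at the unadjusted limit, with no overlap between the groups (adjusted p = 0.325 from limma). The ERR genes Esrra, Esrrb and Esrrg had values of -0.04, -0.06 and -0.26, with overlapping groups on each, and Esrrg was lower at the unadjusted limit (adjusted p = 0.390).

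The subunits encoded in mitochondrial DNA, which form the proton-pumping core of the membrane arm, differed less between the groups than the nuclear core at the median. All 7 had negative log2 fold changes, from -0.16 to -0.07, with a median of -0.09, or 94.1% of the ntc level. None met the unadjusted limit (lowest adjusted p = 0.454 from limma), although 5 were lower with no overlap between the groups, against 9.99% of all genes. Their signals lay between 12.34 and 14.06, near the upper end of the array scale, and a compression of differences there was not tested. For example, mt-Nd1 read 13.60, 13.57 and 13.56 in siAspa and 13.71, 13.72 and 13.77 in ntc. Ndufab1, the mitochondrial acyl carrier protein and a subunit whose symbol lies outside the rule, read 7.61, 7.63 and 7.73 in siAspa and 7.98, 7.88 and 8.03 in ntc (log2 fold change -0.31, adjusted p = 0.212 from limma).

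Assembly factors build the complex without remaining in it. Of 17 measured, 14 had negative values, and the median log2 fold change was -0.15. At the unadjusted limit 5 were lower and 0 higher, against 6.17% and 6.87% of all genes. Ecsit, which acts in the assembly of the membrane arm, read 8.52, 8.39 and 8.84 in siAspa against 9.03, 8.96 and 9.03 in ntc (log2 fold change -0.43, adjusted p = 0.253). Ndufaf4, which acts on the matrix arm, was also apart, with a value of -0.35 (adjusted p = 0.268).

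In the other respiratory complexes no single gene passed the adjusted limit either, and their medians lay on both sides of that of complex I. Complex II, succinate dehydrogenase, was lower at the unadjusted limit in 4 of 4 genes with a median of -0.36, among them its flavoprotein Sdha, at 11.66, 11.53 and 11.68 in siAspa against 12.16, 11.99 and 12.16 in ntc (log2 fold change -0.48, adjusted p = 0.110). In complex III 5 of 8 measured genes were lower (median -0.31), with a log2 fold change of -0.52 for Cyc1, which encodes cytochrome c1 (adjusted p = 0.088). In complex IV it was 6 of 13 (median -0.23), with -0.66 for Cox8b (adjusted p = 0.141), and in complex V 5 of 15 (median -0.16), with -0.36 for Atp5a1, which encodes the alpha subunit of its F1 part (adjusted p = 0.136). No gene of these complexes was higher at that limit, by which 6.17% of all genes were lower and 6.87% higher.

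Other enzymes also feed electrons to ubiquinone beside complex I. Of 6 measured, 3 met the unadjusted limit as lower, against 6.17% of all genes. Gpd2, the mitochondrial glycerol-3-phosphate dehydrogenase, which is abundant in brown fat, had the lowest value. It read 10.57, 10.40 and 10.58 in siAspa and 11.39, 11.12 and 11.41 in ntc, which put siAspa at 57.8% of the ntc level (log2 fold change -0.79, adjusted p = 0.061). Etfdh, which passes on electrons from fatty acid oxidation, stood at 77.1% of the ntc level (log2 fold change -0.37, adjusted p = 0.185).

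Of 9 regulators of mitochondrial genes, 4 were lower and 0 higher at the unadjusted limit, against 6.17% and 6.87% of all genes. The coactivator genes Ppargc1b and Ppargc1a, which drive mitochondrial biogenesis in brown fat, stood at 61.8% and 78.1% of the ntc level (log2 fold changes -0.69 and -0.36, adjusted p = 0.098 and 0.168). On both, every siAspa array lay below every ntc array, with Ppargc1b at 7.10, 7.13 and 7.42 in siAspa against 7.98, 7.77 and 7.99 in ntc. The median of the regulators was -0.06.

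**Figure D5:**
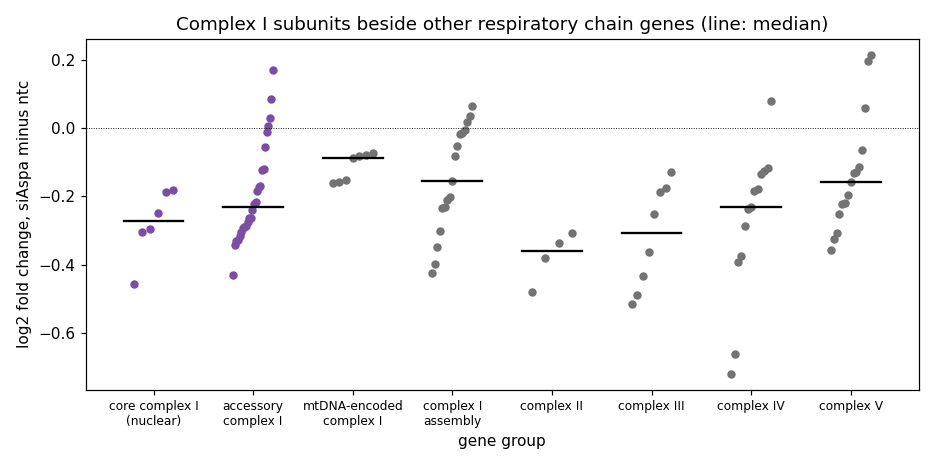
Log2 fold change (siAspa minus ntc) of single genes in 8 groups of the respiratory chain, with a bar at each median. Nuclear core and accessory complex I subunits are purple, and all other groups, the mitochondrially encoded complex I subunits included, are grey. Medians run from -0.36 in complex II to -0.09 in the mitochondrially encoded complex I subunits, with -0.27 and -0.23 for nuclear core and accessory subunits.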

How the data were processed

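The series number in the paper is not that of these arrays, which were matched to its text by the line, the knock-down, the day and the platform. Of each group, 3 arrays (Mouse Gene ST platform, day 7) were used. The deposited values are log2 signals, which the authors obtained from scanner intensities by RMA (background correction, quantile normalization and probe set summary). The paper names CarmaWeb for this step, and the version was not given in the sources used here. RMA makes the arrays' distributions equal, which would hide a change of all genes together, and no detection call is given, so that dim rows can be compressed by background. Probe sets of subunits with processed pseudogenes may also read those copies.

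The platform annotation gave a single gene for 23521 of 41345 rows, several for 1820 and none for 16004. Of 35 single-gene rows with a member symbol, 3 were second rows of a gene. Gene identifiers of 23328 single-gene rows were found in RefSeq (GRCm38.p6).

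The groups were compared with limma 3.58.1 (lmFit, eBayes, R 4.3.3) over all rows, two-sided and unpaired, with Benjamini-Hochberg adjustment and a threshold of 0.05. The paper names a moderated t-test with this adjustment for its arrays and does not say whether it was paired. An interval is the 95% interval of limma, and a percent of the ntc level is 2 raised to the log2 fold change. Summaries over members carry no test. The number of arrays limits the precision. Figures were drawn with matplotlib 3.10.9.

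The members and gene lists were chosen with earlier results of these data known. Subunits named with values are the measured core subunits, the 10 accessory subunits with the lowest unadjusted p, the 5 with the highest log2 fold change, Ndufa4 and any member apart in the higher direction. In other lists up to 2 genes with the lowest unadjusted p are named. Nrf1, Yy1, Gabpa, the ERR genes, the myeloid markers and the members described in short were named after their values were seen. Alternatives were a replicate block, array weights, a robust prior, other row filters, other scalings, the mean of a gene's rows and leaving out each array.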

Additional observations from a re-analysis of the deposited data

How the results depend on the processing

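The median log2 fold change of the members kept its direction under every alternative run, from -0.30 (without ntc 3) to -0.19 (without ntc 1), and 0 members had an adjusted p under 0.05 from limma in any of them. The lowest adjusted p of a named member was 0.051, for Ndufb10 among rows above the median signal. The number of members lower at an unadjusted p under 0.05, 15 in the report, ran from 5 (without siAspa 2) to 20 (without ntc 3) when 1 array was left out, with 6 without ntc 1, 7 without siAspa 1, 8 without ntc 2 and 17 without siAspa 3. It was 13 after subtraction of array medians and 21 with array weights or a robust prior. With the replicate number as a block it was 10, but the sources used here do not say that equal numbers are paired. Over all rows, deviations of arrays with the same number correlated at 0.002, 0.020 and 0.003. Such values show no strong shared effect and cannot exclude a pairing. Members with every siAspa array below every ntc array, 18 in the report, numbered 15 after subtraction of medians. With an array left out they numbered 18 to 27, but of 3 arrays against 2, which come apart more readily, and 13.6% to 14.9% of all genes then had this order (14.8% without ntc 3, which gave the 27). Core minus accessory lay between -0.086 (without ntc 2) and 0.0010 (without ntc 3), with -0.0011 without siAspa 2, and matrix minus membrane arm between -0.10 and -0.06. Of 307 values of named members under 14 alternatives, 9 turned sign. They were those of Ndufa13 at -0.0020 with array weights, -0.0152 without ntc 3, -0.0052 without siAspa 2 and -0.0034 without siAspa 3, of Ndufs5 at -0.05 without ntc 1 and -0.16 without siAspa 3, of Ndufb11 at 0.10 without ntc 3 and 0.12 without siAspa 2, and of Ndufa7 at -0.0059 without siAspa 3, and the cause was not tested. The highest values with an array left out were 0.035 for Ndufa13, 0.13 for Ndufs5 and 0.14 for Ndufa7, and the lowest for Ndufb11 was -0.11. After the data had been seen, the members were also summarised without Ndufa4 (median -0.24) and without the dim Ndufs5 and Ndufb11 (median -0.26). In these summaries core minus accessory was -0.05 without Ndufa4 and -0.02 without Ndufs5 and Ndufb11.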
